A study of Mus musculus with 10 samples.

Results

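The arginases and the other genes of the urea cycle were followed through 10 liver libraries: Nags, Cps1, Otc, Ass1, Asl, Arg1 and Arg2, the arginine transporters Slc7a1 and Slc7a2, and Ddah1. They were chosen by gene name from the deposited count table, where all 10 names were found among 55487 genes, and 9 of them passed the filter on low counts. Arg2 did not. The mice were on the strain written C57B/6J in the labels, were 22 months old, ate chow throughout and were housed together as littermates. The controls (Flox, 5 libraries) carried floxed Arg2 alleles, and the other group (LKO, 5 libraries) lacked Arg2 in hepatocytes. Which Cre line was used, and the sex of the mice, the labels leave unsaid, and no label says that each library is a separate mouse, so that p-values measure the spread between these libraries. The LKO libraries are called by their column numbers, 1 to 5.

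The urea cycle turns ammonia, which is toxic, into urea for excretion, and in mammals the whole cycle runs in hepatocytes, mostly those near the portal vein. Mitochondria make carbamoyl phosphate and join it to ornithine. The cytosol then builds argininosuccinate, cleaves it to arginine, and splits arginine into urea and ornithine. Arg1 is the cytosolic arginase of the liver cycle, whereas Arg2 is a mitochondrial arginase better known from kidney, intestine and immune cells.

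Sequence just upstream of the RefSeq start site was at hand for 5 of the 10 genes (Otc, Ass1, Nags, Slc7a1 and Ddah1; RefSeq, GRCm38.p6). The 250 bases before the start are shown for 3 of them, because Otc had the smallest p of the group, Ass1 varied most between livers among the cycle enzymes, and Nags differed from both in direction. All 3 lie on the plus strand and read 5′ to 3′. Capitals mark every match, on either strand, to TATAAA (the TATA box), CCAAT (the CCAAT box), TTGCNNAA (a C/EBP site), TTCNNNGAA (a STAT site), TGACG (a CRE half-site), GGGCGG (the GC box) or CACGTG (an E-box).
Otc, chrX:10252055-10252304: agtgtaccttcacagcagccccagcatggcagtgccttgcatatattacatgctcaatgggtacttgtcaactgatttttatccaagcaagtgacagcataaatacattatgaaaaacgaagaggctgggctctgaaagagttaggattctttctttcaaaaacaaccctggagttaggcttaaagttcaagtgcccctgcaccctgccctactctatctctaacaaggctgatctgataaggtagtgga
Ass1, chr2:31470020-31470269: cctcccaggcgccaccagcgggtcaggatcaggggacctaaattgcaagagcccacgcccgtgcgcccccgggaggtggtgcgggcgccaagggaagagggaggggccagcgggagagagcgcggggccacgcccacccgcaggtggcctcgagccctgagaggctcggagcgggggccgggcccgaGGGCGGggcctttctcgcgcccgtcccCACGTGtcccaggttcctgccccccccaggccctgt
Nags, chr11:102145263-102145512: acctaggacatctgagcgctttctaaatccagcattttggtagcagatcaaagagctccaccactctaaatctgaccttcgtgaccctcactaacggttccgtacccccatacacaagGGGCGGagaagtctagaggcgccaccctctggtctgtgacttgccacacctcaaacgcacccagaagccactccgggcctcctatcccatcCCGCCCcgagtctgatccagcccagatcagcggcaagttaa

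The 3 stretches differ in base composition. Ass1 was 75.6% G and C with 23 CpG, Nags 55.6% with 11 and Otc 43.6% with 1, beside medians of 52.4% and 6 over 32851 mouse windows of this length. The Ass1 stretch held 1 GC box, 63 bases before the RefSeq start, and 1 E-box, 36 bases before it. GENCODE places the start of Ass1 at 31470207, inside this stretch, so these distances hold for the RefSeq start only. The Nags stretch held 2 GC boxes, at 132 and 41 bases before the start, and the Otc stretch held none of the 7 motifs. These 32851 windows leave out 1 chromosome. Of them, 32.7% held a GC box, 6.02% this E-box, 33.8% the CCAAT box, 17.8% the CRE half-site, 12.4% the TATA box, 9.56% the C/EBP site and 7.02% the STAT site. A match is a description of the letters and not evidence of binding.

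The libraries held 43331354 to 54951415 gene counts. The floor for a count of 0 is 3 counts (0.0546 to 0.0692 CPM, where each count is divided by its library's total and scaled), and floors and intervals here cover counting error only. Hepatocyte markers were abundant everywhere, at 63356 to 159122 summed CPM for the 10 markers found of 11. Flox libraries 2 and 3 stood apart by an acute phase response, the liver's secretion of inflammation proteins. Their summed CPM over 17 acute phase genes was 109052 and 147717, against 20776 to 60428 in the other 8 libraries. The fold changes and correlations below are therefore also given without these 2 libraries, a choice made with their acute phase values known; levels and marker sums are over all 10.

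Per length of transcript, Ass1 was the most abundant of the 10 genes, and Slc7a1 and Arg2 were the least. Levels were set as TPM, counts per kilobase of exon scaled to the same total in each library. Ass1 stood at 2232 ± 1022 TPM in Flox and 3028 ± 345 TPM in LKO (SD, n = 5, here and below). Arg1 followed at 1159 ± 196 and 1334 ± 106 TPM, and Cps1 at 859 ± 209 and 1070 ± 167 TPM. Across libraries the ranges of Ass1 and Arg1 overlapped, as did those of Arg1 and Cps1, yet by exon length, within each of the 10 libraries, Ass1 was above Arg1 and Arg1 above Cps1. Asl (213 ± 65.0 and 251.7 ± 38.1 TPM) and Otc (170 ± 35.1 and 224 ± 20.7 TPM) formed the next step, with Asl higher in 8 of 10 libraries. Ddah1, Slc7a2 and Nags lay between 38.9 and 116 TPM in every library with overlapping ranges. Slc7a1 (0.161 ± 0.103 and 0.118 ± 0.021 TPM) and Arg2 (0.055 ± 0.076 and 0.064 ± 0.088 TPM) were far below all others. With the longest transcript as the length in place of all exons, Ddah1 and Slc7a2 traded places in the mean order, and Ass1 was above Arg1 in 9 of 10 libraries, Flox 3 being the exception.

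**Figure D1:**
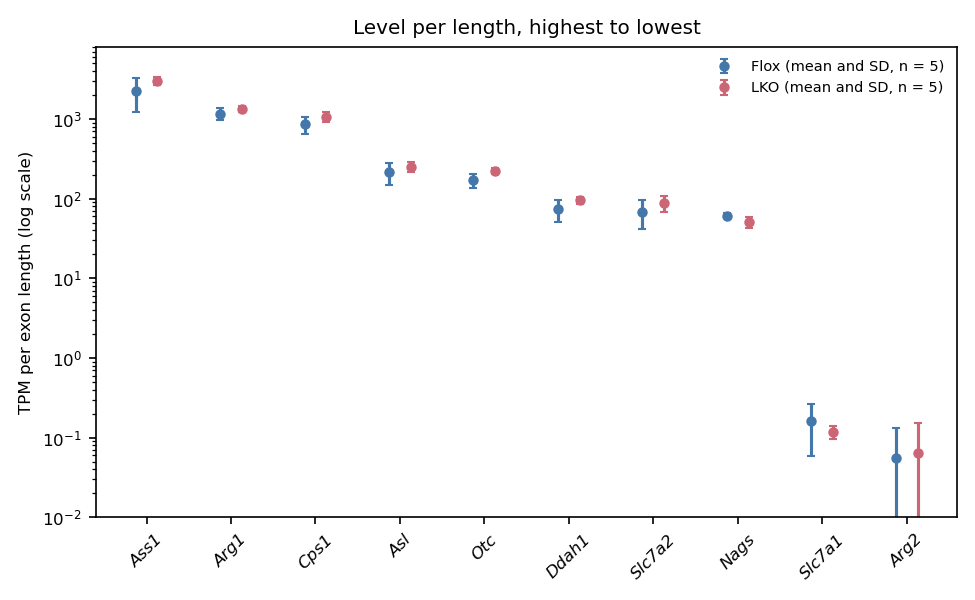
Level per exon length (TPM, log axis) of the 10 genes, ordered from highest to lowest, as mean and SD of 5 libraries in Flox (blue) and LKO (red). The lower SD bars of Arg2 run below the axis, since 3 libraries of each group had no Arg2 count. The order runs from Ass1 to Arg2, and the gap between Nags and Slc7a1 is the widest.

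No gene of the cycle passed the comparison of LKO with Flox. By edgeR's quasi-likelihood test 0 of the 9 tested members passed, and so did 0 of all 15894 genes (0%), with adjusted p from 0.652 to 0.782 for the members. Of the 9, 7 had a log2 fold change above 0 and 2 below, beside 48.4% above 0 over all genes, and their median was 0.36 beside -0.01 over all genes. Otc alone had an unadjusted p under 0.05, in a fit where 7.51% of all genes did (1193 genes; 3.17% higher and 4.33% lower in LKO). That count was 575 without Flox 3, 739 without LKO 4 and 1885 without Flox 5. DESeq2 called 11 genes (1380 at an unadjusted p under 0.05) and limma-voom with quality weights 0 (1049). No member was among the called genes, whereas Otc and Ddah1 were among the unadjusted ones of both methods. For no member were the Flox and LKO libraries apart without overlap, which 0.944% of all genes were (0.327% higher and 0.617% lower in LKO). Without Flox 2 and 3 the members' median log2 fold change was 0.08.

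**Figure D2:**
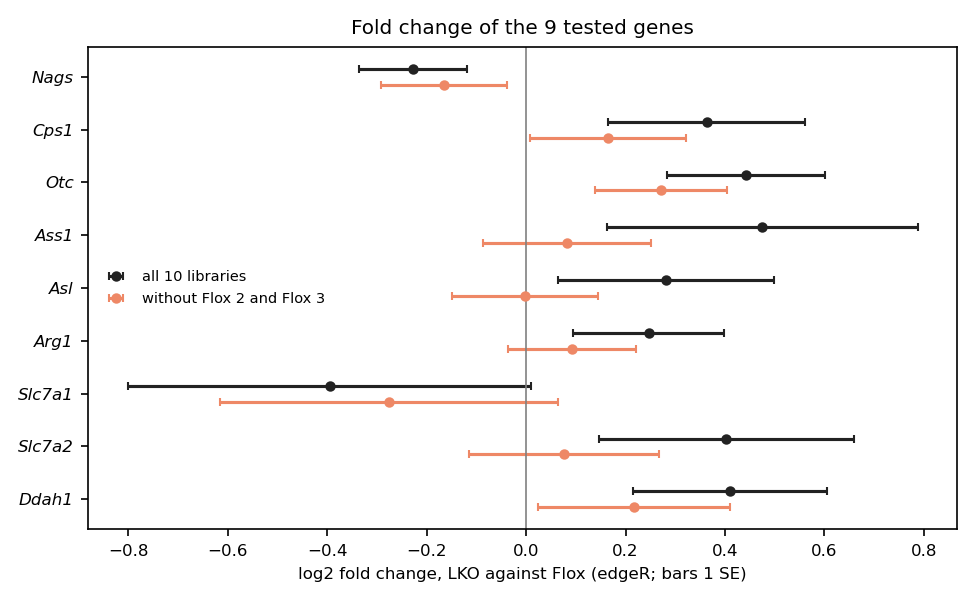
Log2 fold change of LKO against Flox for the 9 tested genes (horizontal axis; bars are 1 SE), from all 10 libraries in black and without Flox 2 and 3 in orange. With all libraries 7 genes lie above 0, and without the 2 libraries the values of Ass1, Asl, Slc7a2 and Arg1 lie between -0.01 and 0.10.

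Arg2 (ENSMUSG00000021125, chromosome 12, 79130777 to 79156301, plus strand, GRCm38), the gene deleted in LKO hepatocytes, had almost no reads in either group. Flox 2 had 4 counts, Flox 4 had 5, LKO 4 had 4 and LKO 5 had 6, and the other 6 libraries had 0. Libraries with and without counts thus occurred in both groups. As CPM of the summed counts of both arginases, Arg2 was at 30.6 in Flox (9 of 293785, exact Clopper-Pearson 95% interval 14.0 to 58.2) and 31.8 in LKO (10 of 314016, 15.3 to 58.6). The ratio of Arg2 counts between the groups, scaled by library totals, was 1.19 with an exact interval of 0.434 to 3.30. It was 0.613 without LKO 5, 2.10 without Flox 4 and 1.35 without Flox 2 and 3, so that counts this few cannot show a difference and do not check the deletion. Of the 1428 exon bases of Arg2, 401 (28.1%) are shared with exons of genes on the other strand, Vti1b and Gm48780. Vti1b had 21970 counts over the 10 libraries. Whether the counting used strand is not given in the sources used here, and reads from the shared bases cannot be told apart without it.

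Arg1 (ENSMUSG00000019987, chromosome 10, 24915221 to 24927484, minus strand) is the enzyme that releases urea. The Flox libraries 1 to 5 were at 1335, 1076, 826, 1202 and 1255 CPM. The LKO libraries were at 1211, 1251, 1304, 1538 and 1289 CPM. The groups overlapped, with Flox 3 lowest and LKO 4 highest of the 10. The log2 fold change was 0.25 ± 0.15 (SE; adjusted p = 0.671 by edgeR) and 0.09 ± 0.13 without Flox 2 and 3.

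**Figure D3:**
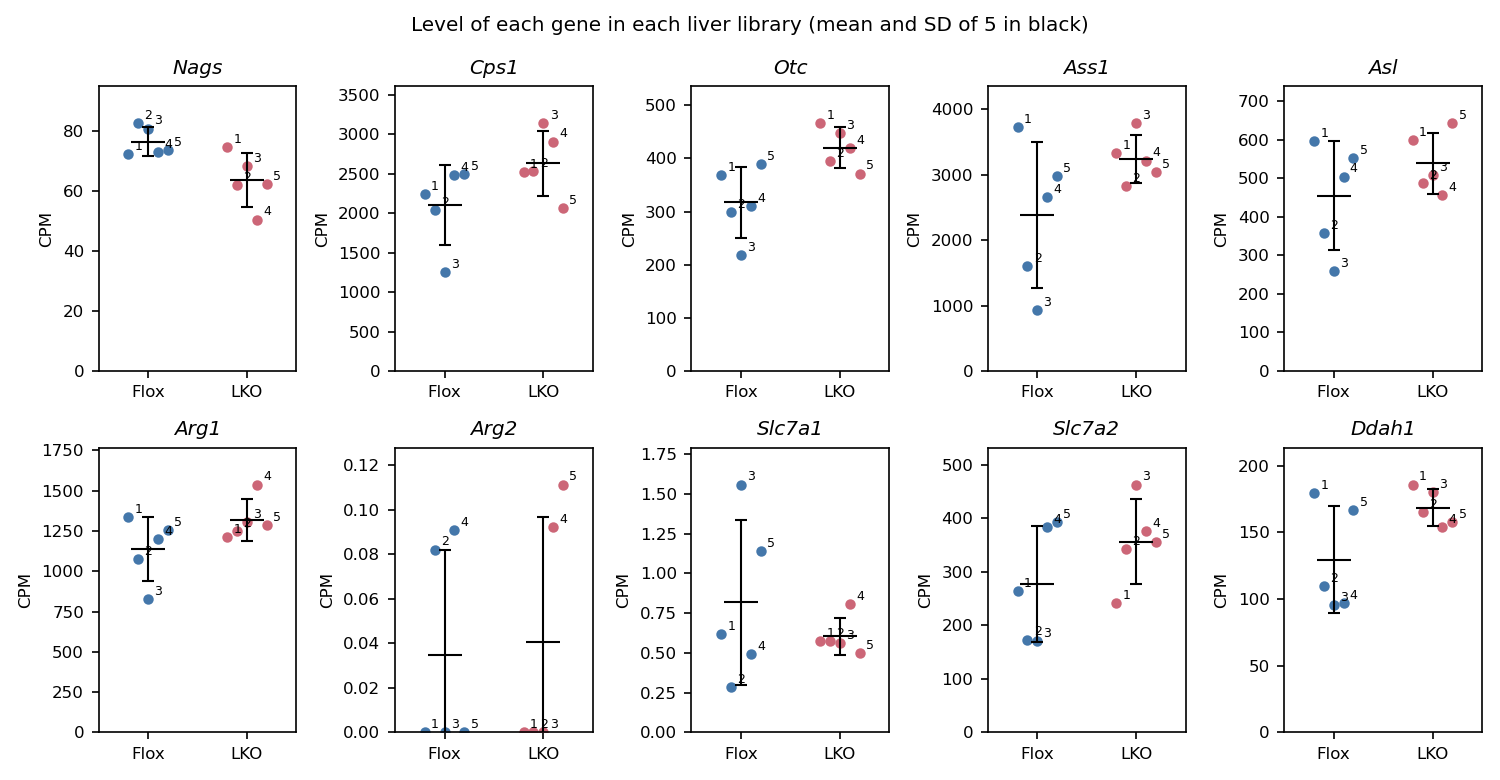
CPM (vertical axis, from 0) of each of the 10 genes in each library, Flox in blue and LKO in red, with library numbers beside the points and the mean and SD of 5 in black. Flox 3 is the lowest library for Cps1, Otc, Ass1, Asl, Arg1, Slc7a2 and Ddah1, and not for Nags, Slc7a1 or Arg2.

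The mitochondrial steps came next. Cps1 (ENSMUSG00000025991, chromosome 1, 67123026 to 67231259, plus strand) encodes carbamoyl phosphate synthetase 1, which fixes ammonia and commits it to the cycle. Flox libraries had 2246, 2041, 1255, 2482 and 2493 CPM and its LKO libraries at 2520, 2537, 3143, 2910 and 2061 CPM. Of the 5 LKO libraries, 4 lay above every Flox library and LKO 5 lay among them. For Cps1 the log2 fold change was 0.36 ± 0.20 (adjusted p = 0.656 by edgeR), and 0.17 ± 0.16 without Flox 2 and 3.

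Otc (ENSMUSG00000031173, chromosome X, 10252305 to 10321024, plus strand) encodes ornithine transcarbamylase, which joins carbamoyl phosphate to ornithine to make citrulline. It is the gene whose upstream stretch, shown above, had the lowest G and C content of the 3. Its Flox libraries were at 369, 299, 219, 311 and 389 CPM and its LKO libraries at 466, 395, 448, 419 and 372 CPM. The groups touched only through Flox 5 and LKO 5: the other 4 Flox libraries lay below all LKO libraries. The log2 fold change was 0.44 ± 0.16 (unadjusted p = 0.0160, adjusted p = 0.652 by edgeR), and an exact two-sided permutation test of the 10 log2 CPM values gave an unadjusted p of 0.0159, where 0.00794 is the smallest that 5 against 5 allows. Without Flox 2 and 3 the log2 fold change was 0.27 ± 0.13 (unadjusted p = 0.0660 by edgeR), so that the unadjusted value no longer lay under 0.05.

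Nags (ENSMUSG00000048217, chromosome 11, 102145513 to 102149477, plus strand) encodes the synthase of N-acetylglutamate, the obligate activator of carbamoyl phosphate synthetase 1. Its Flox libraries were at 72.4, 82.6, 80.8, 73.0 and 73.6 CPM and its LKO libraries at 74.8, 61.9, 68.4, 50.4 and 62.3 CPM. Nags was lower in 4 LKO libraries than in any Flox library, and only LKO 1 lay among the Flox values. It was thus on the other side from Cps1 and Otc, at a log2 fold change of -0.23 ± 0.11 (adjusted p = 0.652 by edgeR). Its unadjusted p was 0.0588 by edgeR. The exact permutation p of its log2 CPM, scaled by library totals only, was 0.0317, unadjusted. By that permutation test the members other than Otc and Nags had unadjusted p from 0.0952 (Cps1) to 0.683 (Arg2). The share of all genes under 0.05 by the permutation test was not computed. Without Flox 2 and 3 the log2 fold change of Nags was -0.17 ± 0.13, and without LKO 4, the lowest library, it was -0.16. An antisense gene, Gm11586, covers 443 of the 2838 exon bases of Nags, but held only 59 counts over the 10 libraries. Counts of Cps1 per count of Nags were 27.8 ± 7.83 in Flox and 42.3 ± 10.1 in LKO, with overlapping ranges, and 33.0 ± 1.69 in Flox without libraries 2 and 3.

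Ass1 and Asl form the cytosolic pair that makes arginine. Ass1 (ENSMUSG00000076441, chromosome 2, 31470207 to 31520672, plus strand) encodes argininosuccinate synthetase, which joins citrulline to aspartate. Its Flox libraries were at 3727, 1609, 933, 2656 and 2981 CPM and its LKO libraries at 3329, 2829, 3787, 3214 and 3038 CPM. Flox 2, 3 and 4 lay below every LKO library, with 2 and 3 farthest below, and Flox 1 and 5 lay within the LKO range. The SD was 46.7% of the mean in Flox and 11.1% in LKO. Its log2 fold change was 0.48 ± 0.31 (adjusted p = 0.680 by edgeR), 0.72 ± 0.29 without Flox 1, 0.27 ± 0.22 without Flox 3 and 0.08 ± 0.17 without Flox 2 and 3. Ass1 has a near-identical copy in the processed pseudogene Gm5424, whose transcript matched it over 1240 bases at 99.5% identity. Gm5424 held 3.99% to 5.40% of the counts of the pair in each library, and with its counts added to Ass1 the log2 fold change was 0.47 ± 0.31. How reads that fit both were counted is not given in the sources used here.

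Asl (ENSMUSG00000025533, chromosome 5, 130011258 to 130029247, minus strand) encodes argininosuccinate lyase, which releases arginine and fumarate. Asl was at 597, 357, 259, 504 and 552 CPM in Flox and at 599, 487, 508, 455 and 643 CPM in LKO. Flox 2 and 3 lay below every LKO library, and the other 3 Flox libraries lay within the LKO range. For Asl the log2 fold change was 0.28 ± 0.22 (adjusted p = 0.721 by edgeR) and -0.0022 ± 0.15 without Flox 2 and 3, so that its sign rests on them. Ass1 counts per Asl count were 5.004 ± 0.998 in Flox and 6.12 ± 1.12 in LKO, with Flox 3 lowest at 3.60 and LKO 3 highest at 7.45, and the Flox mean was 5.64 without libraries 2 and 3.

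Summed over Cps1, Otc, Ass1, Asl and Arg1, the cycle enzymes took 0.639% ± 0.195 of all counts in Flox and 0.815% ± 0.0745 in LKO. Flox 3 held 0.349% and Flox 2 0.538%, and the other 8 libraries held 0.716% to 0.919%. The make-up of that sum differed between libraries. In Flox 2 and 3, Ass1 was 29.9% and 26.7% of it and Arg1 20.0% and 23.7%, whereas in the other 8 libraries Ass1 was 37.1% to 45.05% and Arg1 14.2% to 18.0%. The count ratio of Ass1 to Arg1 was 1.49 and 1.13 there, and 2.09 to 2.91 in the others. Nags, outside this sum, was highest of the 10 libraries in Flox 2 and 3, at 82.6 and 80.8 CPM. What lay behind the lower sum in these 2 libraries of whole liver, such as hepatocyte number or RNA per hepatocyte, was not tested.

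**Figure D4:**
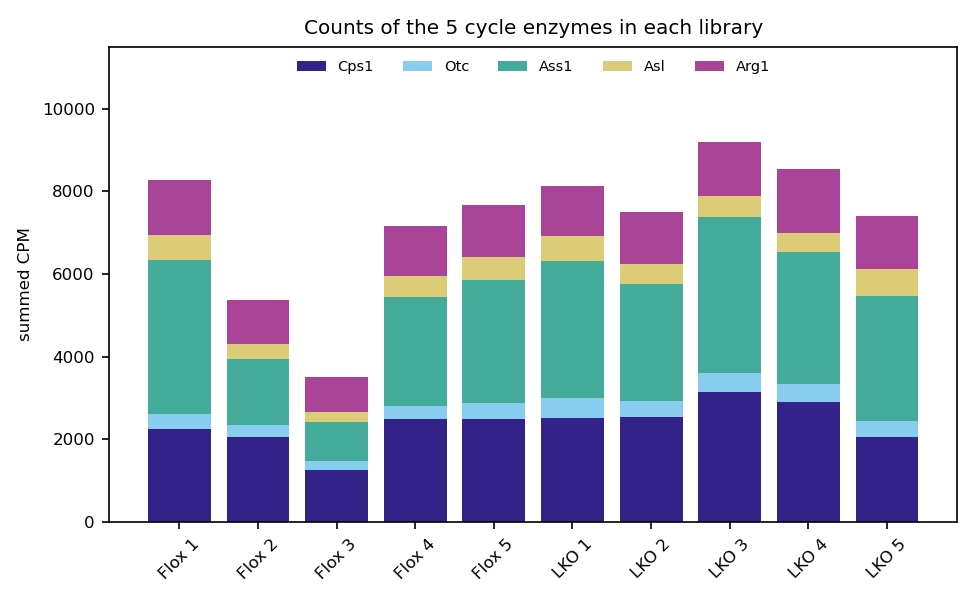
Stacked CPM of Cps1, Otc, Ass1, Asl and Arg1 in each of the 10 libraries (vertical axis, summed CPM). Flox 2 and 3 are the shortest bars, at 5382 and 3493 summed CPM, and the other 8 bars reach 7156 to 9191.

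The transporters and Ddah1 surround the cycle. Slc7a2 (ENSMUSG00000031596, chromosome 8, 40862396 to 40922308, plus strand) encodes the cationic amino acid transporter CAT-2, whose liver form takes up arginine, lysine and ornithine with low affinity. It was at 263, 174, 171, 383 and 393 CPM in Flox libraries and at 242, 343, 463, 377 and 356 CPM in LKO libraries. Flox 2 and 3 lay below all LKO libraries and the other values intermixed. The log2 fold change was 0.40 ± 0.26 (adjusted p = 0.674 by edgeR) and 0.08 ± 0.19 without Flox 2 and 3. A lincRNA gene on the other strand, Gm26584, shares 635 of its 9135 exon bases.

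Slc7a1 (ENSMUSG00000041313, chromosome 5, 148327410 to 148399904, minus strand) encodes CAT-1, the high-affinity transporter of most other tissues, which adult liver is known to lack largely. It was at 0.620, 0.288, 1.56, 0.491 and 1.14 CPM in Flox and at 0.576, 0.575, 0.564, 0.808 and 0.501 CPM in LKO, or 14 to 70 counts a library. The Flox values lay on both sides of the LKO range. For Slc7a1 the log2 fold change was -0.39 ± 0.41 (adjusted p = 0.782 by edgeR) and -0.03 ± 0.37 without Flox 3. It was -0.28 ± 0.34 without Flox 2 and 3. Slc7a2 counts exceeded Slc7a1 counts 110-fold in Flox 3 and 345-fold to 821-fold in the other 9 libraries.

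Ddah1 (ENSMUSG00000028194, chromosome 3, 145758675 to 145894277, plus strand) encodes an enzyme that degrades asymmetric dimethylarginine, an inhibitor of nitric oxide synthases. Its Flox libraries were at 179, 109, 95.1, 96.9 and 167 CPM and its LKO libraries at 186, 165, 180, 154 and 158 CPM. The Flox libraries fell into a low set of 3 (2, 3 and 4), below every LKO library, and a pair within the LKO range. The log2 fold change was 0.41 ± 0.19 (unadjusted p = 0.0569, adjusted p = 0.652 by edgeR). It was 0.58 ± 0.17 without Flox 1 and 0.22 ± 0.19 without Flox 2 and 3.

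Across the 10 libraries, several members were low where the acute phase genes were high. Asl had a Pearson r of -0.90 (Spearman -0.79) between its log2 CPM and the log2 of the acute phase sum, with a permutation p of 0.00075 and an adjusted p of 0.0243 over all 15894 genes. Ass1 (r = -0.89, Spearman -0.65, permutation p = 0.00143, adjusted 0.0310) and Otc (r = -0.88, Spearman -0.71, permutation p = 0.00148, adjusted 0.0316) were close to it. Ddah1 (r = -0.87, Spearman -0.71, permutation p = 0.00411, adjusted 0.0493) and Arg1 (r = -0.81, Spearman -0.55, permutation p = 0.00408, adjusted 0.0492) also passed, near the threshold. Thus 5 of the 9 tested members passed with a negative r, beside 3.79% of all genes, and 0 passed with a positive r, beside 4.65%. Cps1 (r = -0.68, Spearman -0.42, permutation p = 0.0295, adjusted 0.129), Slc7a2 (r = -0.65, Spearman -0.35, permutation p = 0.0424, adjusted 0.158), Nags (r = 0.51, Spearman 0.28, permutation p = 0.132, adjusted 0.308) and Slc7a1 (r = 0.02, Spearman -0.22, permutation p = 0.965, adjusted 0.983) did not pass.

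None of these 5 passed over the 8 libraries without Flox 2 and 3, which were the farthest from the median acute phase sum. There r was -0.75 for Ddah1, -0.60 for Otc, -0.54 for Asl, -0.46 for Ass1 and -0.23 for Arg1, with adjusted permutation p of 0.403 to 0.878. All 5 were still negative, Ddah1 nearest to its value over 10 libraries and Arg1 farthest from it. The sign turned for Cps1 (0.17), Slc7a2 (0.36), Nags (-0.0082) and Slc7a1 (-0.51). These r pool both groups, and all 17 acute phase genes lay lower in LKO. Within the 5 LKO libraries alone r was -0.63 for Asl, -0.27 for Otc, -0.22 for Ass1, -0.15 for Ddah1 and -0.0021 for Arg1, given without a test. The hepatocyte marker sum, most of which is albumin (Alb), was likewise lowest in Flox 3 (63356 CPM) and Flox 2 (87435 CPM) and 118519 to 159122 CPM in the other 8. The pericentral hepatocyte sum was not: Flox 3 had the second highest at 9656 CPM and Flox 2 had 8366 CPM, within 5064 to 10820 CPM in all. The sum of periportal markers outside the cycle was lowest in Flox 3 (3312 CPM), but Flox 2 was at 4669 CPM, within 3312 to 5253 CPM in all. A sum of non-hepatocyte genes, of stellate cells and fibroblasts, was also lowest in Flox 2 (122 CPM) and Flox 3 (127 CPM), beside 177 to 271 CPM in the other 8. The part of the acute phase genes or of hepatocyte content in the members' levels was not tested.

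**Figure D5:**
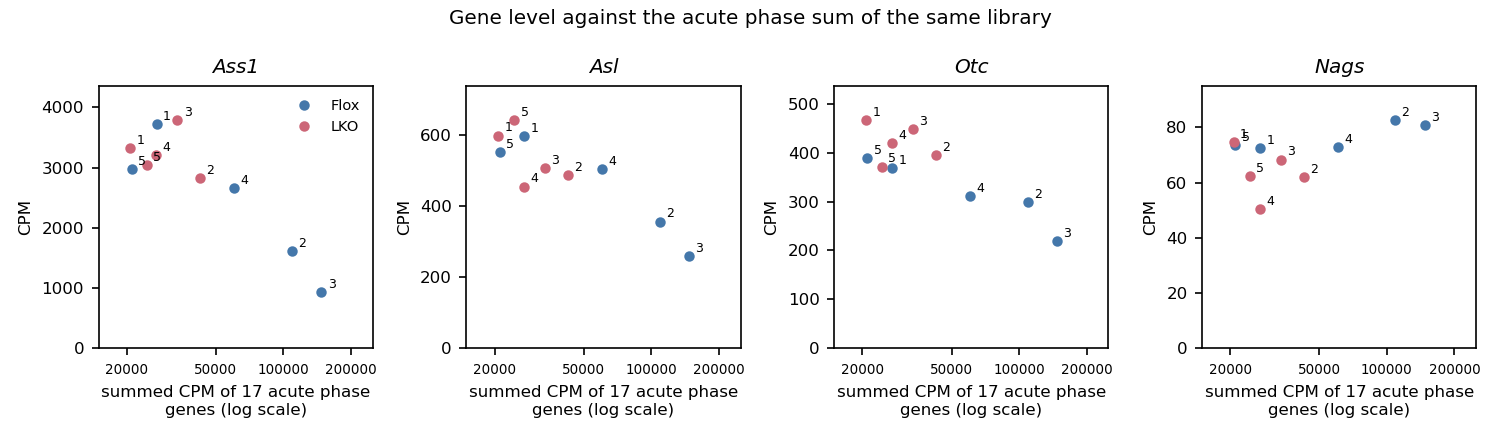
CPM of Ass1, Asl, Otc and Nags (vertical axes) against the summed CPM of 17 acute phase genes in the same library (horizontal log axis), Flox in blue and LKO in red with library numbers. Ass1, Asl and Otc are lowest in Flox 2 and 3, at the right, while Nags is highest there.

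No gene of the marker lists passed edgeR's test adjusted over all genes, and the counts here are by sign unless an unadjusted p is named. The 9 red cell and erythroid genes summed to 229 to 417 CPM in Flox and 447 to 875 CPM in LKO, without overlap. Taken singly, 0.944% of all genes had groups without overlap. All 8 tested red cell and erythroid genes lay above 0, both with and without Flox 2 and 3. Of the 12 pericentral hepatocyte markers, 1 had a log2 fold change above 0 and 11 below (5064 to 8087 summed CPM in LKO, 6751 to 10820 in Flox). Of the 12 periportal markers outside the cycle, 8 lay above 0 and 4 below (3918 to 5253 summed CPM in LKO, 3312 to 4831 in Flox). All 12 macrophage and Kupffer cell markers had values below 0 (92.1 to 616 summed CPM in LKO, 150 to 821 in Flox), with 0 at an unadjusted p under 0.05. Of 10 tested T and NK cell markers, 9 lay below 0 (2.30 to 6.07 summed CPM in LKO, 4.79 to 12.6 in Flox), with 5 at an unadjusted p under 0.05, and 2 without Flox 2 and 3. An unadjusted p under 0.05 by edgeR was also found for 14 of 17 acute phase and 7 of 8 tested red cell genes. It was found for 7 of 12 periportal and 2 of 12 pericentral markers, beside 7.51% of all genes. Without Flox 2 and 3 these counts were 0, 5, 3 and 4, beside 517 of 16551 genes. Over all 10 libraries the 7 periportal markers pointed both ways: Pck1 (log2 fold change -0.47) and Tbx3os1 (-0.58) lay below 0 and the rest above. All 17 acute phase genes lay below 0, at a median log2 fold change of -1.69, and of -0.56 without Flox 2 and 3. The part of these lists in the members' values was not tested. Of 10 kidney tubule and intestine genes, tissues where Arg2 is high, Fabp2 had 28802 counts over the 10 libraries, Lrp2 527, Vil1 92, Aqp2 81, Cubn 35, Slc5a2 11, Slc34a1 7, Umod 6, Lct 6 and Sis 0.

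The members resembled different genes when their log2 CPM was followed over the 10 libraries, among 11012 genes with an average log2 CPM of at least 1. The values are a description with no test, since the nearest of so many genes will always be close. The 2 genes nearest to Arg1 were Acsl4 (Pearson r 0.97, Spearman 0.94) and Rpa3 (0.96, Spearman 0.89). Those nearest to Cps1 were Qser1 and Cyp2c23 (0.97 each), and those nearest to Otc were Ugt2a3 (0.99) and Cyp3a44 (0.97). Ass1 was closest to its own copy Gm5424 and to Cyp3a11 (0.97 each), and Asl to Hoga1 and Serpinf1 (0.97 each). Slc7a2 was nearest to Dtnb and Ttc39c (0.97 each), Nags to Mindy1 (0.95) and Sh2b1 (0.93), and Ddah1 to Albfm1 (0.95) and Ces1e (0.94). Slc7a1 was nearest to Cd93 (0.84) and Laptm4a (0.82). Without Flox 2 and 3 the r of these pairs was 0.36 and 0.32 for Slc7a1, 0.82 and 0.79 for Ass1, 0.80 and 0.82 for Asl, and 0.87 and 0.79 for Arg1. It was 0.91 and 0.93 for Cps1, 0.95 and 0.88 for Otc, 0.95 and 0.89 for Nags, 0.97 and 0.94 for Slc7a2, and 0.92 and 0.90 for Ddah1.

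Among the members themselves the pairs most alike were Ass1 with Asl (r 0.91, Spearman 0.65), Otc with Ass1 (0.91, Spearman 0.75) and Arg1 with Ass1 (0.91, Spearman 0.81). Over the 8 libraries without Flox 2 and 3 the same pairs had r of 0.22, 0.59 and 0.36. Otc and Ddah1, at 0.89 over 10 libraries (Spearman 0.78), still had 0.81 over 8. Arg1 and Nags lay at the other end, at -0.75 over 10 libraries (Spearman -0.77) and -0.82 over 8.

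Of 80 further genes of the pathway, 79 were found and 63 tested, and 0 passed edgeR's test adjusted over all genes. Of the 63, 35 had values above 0 and 28 below, with a median log2 fold change of 0.02, and 6 had an unadjusted p under 0.05 (9.52%, beside 7.51% of all genes). Without Flox 2 and 3, 30 lay above 0 and 33 below, and 1 of 63 had an unadjusted p under 0.05, beside 517 of 16551 genes. Genes that supply nitrogen and carry intermediates had 13 of 17 tested above 0, and 6 of 17 without Flox 2 and 3. Gls2, the liver glutaminase that feeds ammonia to Cps1 and a periportal marker, averaged 293 ± 92.2 CPM in Flox libraries and 406 ± 73.2 CPM in LKO libraries (log2 fold change 0.51 ± 0.23, adjusted p = 0.652 by edgeR; 0.25 ± 0.16 without Flox 2 and 3). Mdh1, the cytosolic malate dehydrogenase, was at 439 ± 47.9 and 491 ± 43.2 CPM. Slc25a15, the carrier that brings ornithine back into mitochondria, was at 205 and 201 CPM; it was picked with its values in view.

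Genes of other arginine use had 4 of 10 tested above 0, with Azin1, an antizyme inhibitor, at 49.0 ± 10.6 and 58.3 ± 7.4 CPM and Padi2, a peptidyl arginine deiminase, at 0.376 ± 0.181 and 0.128 ± 0.119 CPM. Of the genes of arginine methylation and its turnover 5 of 10 lay above 0, and Prmt9 and Prmt6, both arginine methyltransferases, had log2 fold changes of 0.20 ± 0.11 and -0.22 ± 0.19, and of 0.09 ± 0.10 and -0.23 ± 0.24 without Flox 2 and 3. Other amino acid transporters had 2 of 7 above 0. Slc7a5, the large neutral amino acid transporter, averaged 2.29 ± 0.63 CPM in Flox libraries and 1.34 ± 0.48 CPM in LKO libraries (-0.73 ± 0.27, and -0.63 ± 0.32 without Flox 2 and 3), and its heavy chain Slc3a2 at 40.9 ± 3.9 and 33.9 ± 3.4 CPM (-0.23 ± 0.10, and -0.17 ± 0.11 without Flox 2 and 3; adjusted p = 0.652 each by edgeR over all libraries).

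Urea and water channels had 3 tested genes, of which 2 lay above 0. Aqp11 was at 24.6 ± 6.2 and 29.0 ± 6.5 CPM, and Aqp9, which passes urea and glycerol through the hepatocyte membrane, at 311 ± 27.9 and 271 ± 35.3 CPM. Regulators known to act on cycle genes had 9 of 16 above 0. Nr3c1, the glucocorticoid receptor, averaged 58.6 ± 4.5 CPM in Flox libraries and 69.3 ± 6.9 CPM in LKO libraries (0.28 ± 0.09, and 0.21 ± 0.11 without Flox 2 and 3), with Flox libraries at 53.8 to 63.9 CPM and LKO libraries at 63.6 to 80.4 CPM. Gcgr, the glucagon receptor, was at 189 ± 25.0 and 146 ± 17.9 CPM (-0.34 ± 0.12, and -0.22 ± 0.12 without Flox 2 and 3), with overlapping ranges (adjusted p = 0.652 each).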

How the data were processed

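RNA from whole liver was selected with oligo-dT, per the labels' protocols. Alignment and counting tools named in the submitters' processing notes are STAR 2.5.1a and featureCounts 1.4.6-p5 (Subread), after bcl2fastq, with the build GRCm38. The deposited values are raw counts per Ensembl gene, 1 column per library, not normalized, as their whole-number values show. After 287 repeated identifiers were dropped, filterByExpr kept 15894 of 55487 genes. TMM factors ran from 0.963 to 1.04. The 2 groups were fitted in edgeR 4.0.16 (quasi-likelihood F test, robust, no covariate, R 4.3.3), adjusted by Benjamini-Hochberg over all genes at 0.05, with SE from the F statistic. CPM uses library totals, and log2 CPM a prior count of 2. Lengths and positions are from GENCODE M21 (GRCm38), copies from blastn. Permutation tests were two-sided, with all splits for 5 against 5 and 100000 resamples for correlations. DESeq2 1.42.0, limma 3.58.1, library totals, no filter and left-out libraries were alternatives. The fit was also run on simulated counts, drawn for each gene independently. They held no shared acute phase shift of Flox 2 and 3, so that run cannot check the fit against such a shift. The members, lists and rules were chosen with earlier results of these data known. The rule named the 10 members, the 2 genes of smallest p in each pathway list where none passed, and the 2 genes nearest to each member by r.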

Additional observations from a re-analysis of the deposited data

Results flagged for a closer look

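Of 20 groups of 5 libraries (10 genes in Flox and LKO), 2 held a library far from the other 4 by Dixon's test, where chance flags about 1 group in 20. Both were LKO 4: Arg1 was at 1538 CPM there, beside 1211 to 1304 CPM in the other LKO libraries, and Slc7a1 was at 0.808 CPM, beside 0.501 to 0.576 CPM. The Slc7a1 flag rests on few reads: 35 counts in LKO 4, beside 27 in each of the other LKO libraries. LKO 4 also had the lowest Nags value of all libraries (50.4 CPM). Without it the log2 fold change of Arg1 was 0.18 and that of Slc7a1 was -0.52.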

How the results depend on the processing

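Each log2 fold change of the 9 tested members was recomputed with DESeq2, library totals, limma-voom, no count filter, each library left out, and both Flox 2 and 3 left out. Of these 135 values, 134 kept their direction, and that of Asl turned to -0.0022 without Flox 2 and 3. Of the 134 with an adjusted p (Slc7a1 had none with DESeq2), 0 were under 0.05, the lowest being 0.356 for Otc with DESeq2. Over all genes DESeq2 called 11, having adjusted over 8184 genes, and each other alternative called 0; the cause was not tested. Leaving out 1 library, 0 to 0 genes were called. The relation with the acute phase sum, the copy of Ass1, and the pathway genes without Flox 2 and 3 were examined after the data were seen. Without Flox 2 and 3 that relation's r turned to 0.17 for Cps1, 0.36 for Slc7a2, -0.0082 for Nags and -0.51 for Slc7a1. The count ratio of Arg2 ranged from 0.613 to 2.10 with 1 library left out. With the longest transcript as length 2 genes traded mean ranks. Depth limits Arg2 and Slc7a1, at 0 to 6 and 14 to 70 counts a library. No paired analysis was possible because the titles number the Flox samples 1 to 5 and the LKO samples 6 to 10, with no number shared.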
